A study of Mus musculus with 79 samples.

Results

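The comparison described here is EGCG against its solvent DMSO in unsorted T helper 17 (Th17) cells that were differentiated in culture under non-pathogenic conditions. The libraries were chosen by their titles: 5 Th17n EGCG Total libraries and 5 Th17n DMSO Total libraries, or 10 of the 79 in the deposited table. Th17n cells were grown with TGFb and IL-6. EGCG, epigallocatechin gallate, is the main catechin of green tea and was given at 20 µM. T cells had been loaded before culture with CFSE, a dye that is diluted at each division. Total means that all cells were taken without a division sort. The series held the same treatments in cells made under pathogenic conditions (Th17p, where IL-1b, IL-23 and IL-6 were used), in cells sorted after exactly 1 division (Div.1), and with DHEA at 50 µM against its solvent methanol. There were 5 biological replicates (mice) per condition according to the design text. The labels give no strain, age or length of culture, and no genotype other than the cell type.

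Th17 cells are CD4 helper T cells that make the cytokines IL-17A and IL-17F. Cells made with TGFb and IL-6 are known for IL-9 and IL-10, for the aryl hydrocarbon receptor and for low activity in models of tissue inflammation, and TGFb also induces Foxp3, the factor that defines regulatory T cells. The p53 pathway, which recurs below, responds to DNA damage and other stress: p53 activates the cell cycle inhibitor gene Cdkn1a, genes of cell death and a set of stress enzymes.

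The values are TPM, a transcript abundance scaled for transcript length and library size, so no sequencing depth or counting interval can be given. Changes are differences of mean log2(TPM + 1), EGCG minus DMSO, and understate the change of genes with low TPM. Genes with an adjusted p under 0.05 are termed called, from a limma fit to 78 libraries in 16 groups. The fit did not use the library of well A4, labelled as Th17n DMSO Div.1 in a plate row that is otherwise Th17p. Errors after ± are SD over 5 libraries. The limma p-values measure the spread between libraries within groups, pooled for each gene over all 16 groups. Those of the marker sums come from permuting the 5 and 5 libraries. The titles give wells of row F for the DMSO libraries and of row H for the EGCG libraries. They do not say to which plate or step these wells belong. Row and treatment cannot be told apart.

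Marker genes matched the label of T cells. Markers of T cell identity summed to 1981 to 2753 TPM, and markers of CD8 T and NK cells to 11 to 36.4 TPM. Of these 10 CD8 T and NK markers, 3 (Eomes, Klrb1c and Ncr1) were under 0.1 TPM in every library. Another 4 reached the level for testing, of which 1 was called higher with EGCG. Between 9454 and 9757 genes per library reached 1 TPM. The first principal component (38.2% of variance) placed the DMSO libraries between -22.6 and -11.1, and the EGCG libraries between 10.9 and 31.7. EGCG replicate 1 stood apart: its second component score was -32.7 where the other 4 EGCG libraries had 10.4 to 14.7. Its median distance from its group was 0.223 on the log2 scale, against 0.101 to 0.134 in the other 9 libraries. Its erythroid markers summed to 30 TPM against 0.322 to 1.74 in the others.

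Of 10672 genes tested, 3760 were called (35.2%), of which 2319 were higher (21.7%) and 1441 lower (13.5%). The counts of each gene list below are to be read beside these shares. With each library divided by its median ratio to the others, 1908 were higher and 1912 lower, with no excess of increases. At a change of at least 2-fold, 125 genes were higher and 74 lower. The 2 groups of libraries did not overlap for 12% of all genes with EGCG higher and for 6.13% with EGCG lower. The median change over all genes was 0.054.

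EGCG raised genes that p53 activates. Cdkn1a, the gene of p21, which blocks cyclin-dependent kinases (mm10 chromosome 17, 29090976 to 29100727, plus strand), was at 25.5, 17.3, 19.8, 12.2 and 18.8 TPM in the DMSO libraries and at 221, 208, 230, 172 and 222 TPM in the EGCG libraries. Every EGCG library lay far above every DMSO library. The log2 change was 3.45 (SE 0.167, adjusted p = 1.66e-26). Ak1, an adenylate kinase gene that p53 activates, was close to absent in DMSO and abundant in EGCG. It went from 0.941, 0.971, 1.74, 0.425 and 0.902 TPM to 25.8, 31.2, 51.9, 28.4 and 34.7 TPM (log2 change 4.14, SE 0.245, adjusted p = 2.31e-22), the largest increase by the rule for named genes.

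Of 27 p53 targets tested, 21 rose and 0 fell, with a median of 0.69. The enzyme gene Dcxr rose from 7.51 ± 1.39 to 44.9 ± 8.06 TPM, and Plk2, a polo-like kinase induced by DNA damage, from 2.40 ± 0.536 to 14.7 ± 0.955. Ccng1, encoding cyclin G1, rose from 74.1 ± 6.84 to 212 ± 12.5 TPM, and Zmat3, an RNA-binding protein gene, from 4.79 ± 0.733 to 15.5 ± 2.86. Among the targets that act in cell death, the death receptor gene Fas went from 12.2 ± 1.33 to 41 ± 8.43 TPM (log2 change 1.65, adjusted p = 1.63e-17). Bax, which opens the outer membrane of mitochondria, went from 232 to 264 TPM in DMSO to 367 to 533 TPM in EGCG. Tnfrsf10b, the mouse TRAIL receptor gene, changed by 0.69. Mdm2, the ligase that degrades p53, was not called: it had 31.4 ± 3.56 and 38.2 ± 10.1 TPM, and the groups overlapped (log2 change 0.24, 95% interval -0.07 to 0.56, adjusted p = 0.24).

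Of the BCL2 family and caspases, 10 of 19 rose and 0 fell, with a median of 0.32, and both arms of the family were among them. Beside Bax, the pro-death gene Pmaip1 changed by 0.78. The survival genes Bcl2 and Bcl2l1 changed by 0.66 and 0.62. Pmaip1 in EGCG replicate 1 stood at 6.25 TPM, within the DMSO range of 5.41 to 7.43, while the other 4 EGCG libraries had 11.7 to 16.3.

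**Figure D1:**
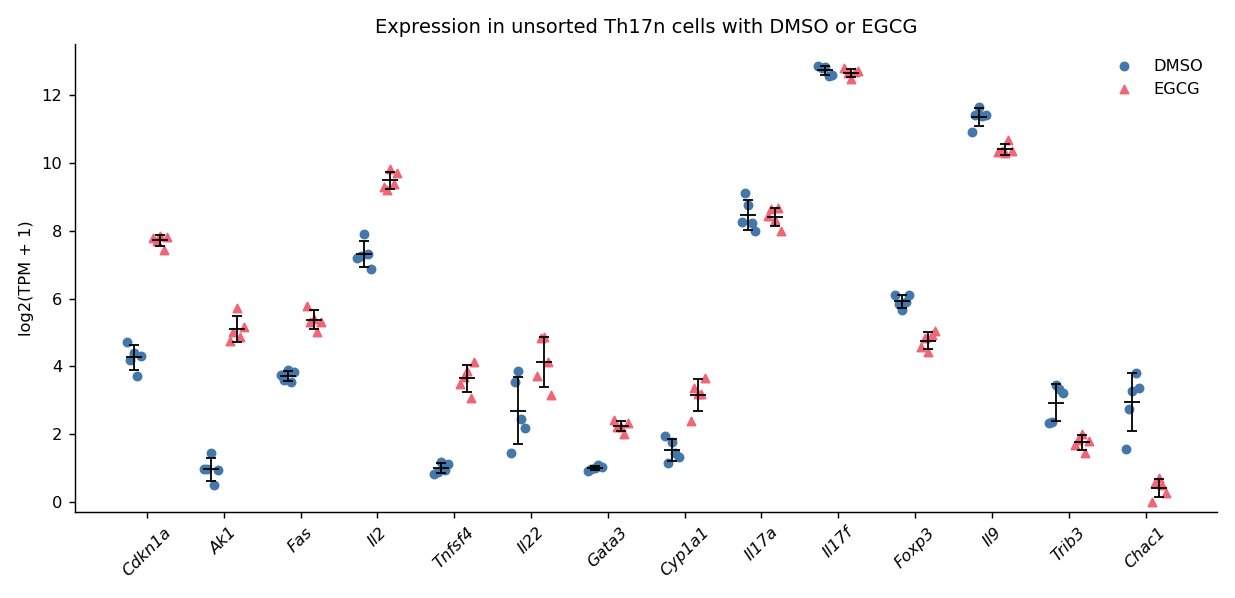
Expression of 14 genes as log2(TPM + 1), on the vertical axis, in each of the 5 DMSO libraries (circles) and 5 EGCG libraries (triangles), with the mean and SD in black. Cdkn1a, Ak1, Fas, Il2, Tnfsf4, Gata3 and Cyp1a1 were higher in all EGCG libraries than in any DMSO library, Foxp3, Il9, Trib3 and Chac1 lower, while Il17a, Il17f and Il22 overlapped.

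Many genes of G2 and mitosis were lower, by small amounts. Of 28 tested, 0 rose and 16 fell, with a median of -0.22, or 22 fell after rescaling. Ccnb1, the cyclin of mitotic entry, had 337, 362, 340, 345 and 295 TPM in DMSO and 224, 269, 205, 254 and 230 TPM in EGCG, with no overlap (log2 change -0.51, adjusted p = 2.54e-08). Cdc20, an activator of the anaphase-promoting complex, changed by -0.37, the mitotic kinase gene Plk1 by -0.35, the spindle gene Prc1 by -0.31 and the cyclin gene Ccnb2 by -0.29. Of 29 replication genes, 4 rose and 5 fell, against 21.7% higher and 13.5% lower over all genes. Their median was -0.04, and 3 rose and 9 fell after rescaling. Among them Tyms, thymidylate synthase, changed by 0.33 and Gins2, a helicase subunit, by 0.22, while the histone mRNA binder Slbp changed by -0.25, Rrm2, of ribonucleotide reductase, by -0.22, and Mcm6, of the replicative helicase, by -0.16. The direction of Psrc1, a spindle gene outside these lists, was opposite: it rose from 7.71 ± 0.902 to 58.6 ± 7.93 TPM.

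Many mitotic promoters carry the cell cycle homology region, TTTGAA, to which the DREAM complex, a repressor downstream of p21, is known to bind. In the RefSeq windows from 250 bases before to 50 after each gene start (GRCm38.p6), these letters, on either strand, were in 17 of 23 mitotic genes that had a window and in 10 of the 13 that were called. They were in 20.2% of all 27025 genes with a window and in 13.9% of the tested ones. The share among called members (76.9%) was close to that of all members (73.9%). Mitotic genes are known for this motif, so its share does not bear on the response to EGCG. The stretches before the start are shown for 3 called genes, with the match in capitals: Cdc20 at chr4:118437344-118437461 (minus strand), Ccnb2 at chr9:70421616-70421804 (minus strand) and Prc1 at chr7:80294346-80294475 (plus strand).
Cdc20: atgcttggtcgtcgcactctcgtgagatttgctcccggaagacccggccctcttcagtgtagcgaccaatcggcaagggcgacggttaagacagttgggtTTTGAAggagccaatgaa
Ccnb2: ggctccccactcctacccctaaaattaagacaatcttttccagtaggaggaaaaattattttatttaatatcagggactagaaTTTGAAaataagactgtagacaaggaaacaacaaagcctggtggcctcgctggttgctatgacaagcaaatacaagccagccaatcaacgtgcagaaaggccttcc
Prc1: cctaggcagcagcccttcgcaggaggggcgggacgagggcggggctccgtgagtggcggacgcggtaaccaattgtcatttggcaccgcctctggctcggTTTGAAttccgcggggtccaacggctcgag
In Cdc20 and Prc1 the match began 18 and 30 bases before the gene start, in Ccnb2 167 bases before it. A match of letters describes the sequence and does not show that a factor binds there. The full p53 consensus, allowing no mismatch, was in 0 of the 20 p53 targets with a window. It was in only 3 of all 27025 genes with a window and in 0 of the 8252 tested ones. With a match that rare, its absence says nothing about these targets.

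No change was detectable in the genes of the cytokines IL-17A and IL-17F. Il17f (chromosome 1, 20777146 to 20790617, minus strand) had 7461, 7063, 7237, 6096 and 6146 TPM in DMSO and 7125, 6414, 5681, 6566 and 6642 TPM in EGCG. Il17a had 303, 549, 431, 298 and 254 TPM in DMSO and 343, 396, 319, 407 and 256 TPM in EGCG. Both ranges overlapped widely. The log2 change was -0.07 for Il17f (95% interval -0.46 to 0.32, adjusted p = 0.825) and -0.05 for Il17a (95% interval -0.94 to 0.83, adjusted p = 0.942), so the interval for Il17a is wide.

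Il22, the third Th17 cytokine, was higher but spread widely. The DMSO libraries had 1.72, 10.7, 13.4, 4.5 and 3.54 TPM and the EGCG libraries 12.1, 27.3, 28, 16.4 and 7.84 TPM. The 2 highest DMSO libraries lay above the lowest EGCG library (log2 change 1.44, SE 0.412, adjusted p = 0.00435). Of 16 core Th17 genes, 4 rose and 1 fell, with a median of 0.21, against 21.7% higher and 13.5% lower over all genes. Runx1, a Runt family factor, changed by 0.42 and Batf, an AP-1 factor, by 0.31. The IL-1 receptor gene Il1r1 changed by -0.59. Il23r (-0.04), Rora (0.18) and Il21 (0.32) were not called, but Il21 was when DMSO replicate 4 or EGCG replicate 2, 3 or 5 was left out (adjusted p 0.0228 to 0.0466).

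Genes linked to the non-pathogenic state were lower on balance: of 8 tested, 1 rose and 4 fell, with a median of -0.36. None of the 4 falls was called in every setting. Il9 had 1914, 2741, 3239, 2669 and 2708 TPM in DMSO and 1274, 1310, 1244, 1626 and 1314 TPM in EGCG. The groups did not overlap, but the spread of Il9 in the fit over all groups was large (log2 change -0.96, SE 0.368, adjusted p = 0.0357). Its adjusted p passed 0.05 when any of 8 of the 10 libraries was left out, at most 0.078 without DMSO replicate 3. The IL-1 antagonist gene Il1rn changed by -0.80 (adjusted p = 0.0233, or 0.0983 without EGCG replicate 2), Ikzf3, which encodes Aiolos, by -0.40 and the receptor gene Ahr by -0.40. With well A4 in its labelled group, the calls of Il9 (adjusted p = 0.287), Ikzf3 (adjusted p = 0.102) and Ahr (adjusted p = 0.15) were lost. Il6st, the shared IL-6 receptor chain, changed by 0.44. Il10 (-0.32) and Maf (-0.24) were not called, Maf becoming so without EGCG replicate 1 (-0.35, adjusted p = 0.0167).

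Of 16 genes of the pathogenic signature tested, 8 rose and 0 fell, with a median of 0.37. Beside Il22 they included Il7r, the IL-7 receptor chain, from 1.18 ± 0.508 to 3.60 ± 0.814 TPM, and Stat4, the factor activated by IL-12 and IL-23, from 7.77 ± 1.21 to 13.3 ± 3.06 TPM. Lgals3, encoding galectin-3, changed by 0.87, Lrmp by 0.57 and the inhibitory receptor gene Lag3 by 0.51. Il23r and Tbx21 (-0.14) of the same list were not called. Genes separating the types were also chosen from the methanol libraries, which the comparison does not use, 200 each way. Of those higher in Th17p, 114 rose and 4 fell with EGCG (median 0.41). Of those higher in Th17n, 28 rose and 49 fell (median -0.06). Over all genes, 21.7% were higher and 13.5% lower. Genes higher in Th17p also rose with EGCG in Th17p cells themselves, 112 higher and 35 lower. Those higher in Th17n had 56 higher and 26 lower there. Over all genes in Th17p, 30.1% were higher and 14.9% lower. Whether Th17n cells moved towards the Th17p type was not tested.

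Foxp3 fell while other genes of regulatory T cells rose. Foxp3 (chromosome X, 7573644 to 7595245, plus strand) had 67.9, 56.1, 49.2, 59 and 67.3 TPM in DMSO and 22.7, 27.7, 20.5, 29.2 and 32.2 TPM in EGCG, without overlap (log2 change -1.16, SE 0.161, adjusted p = 3.35e-08). In bulk RNA, fewer Foxp3-positive cells and less Foxp3 RNA per cell cannot be told apart. Of the 13 genes tested on that list, 7 rose and 1, Foxp3, fell. The checkpoint receptor gene Ctla4 went from 126 ± 6.8 to 252 ± 23.2 TPM, and Tnfrsf18, the gene of GITR, from 75.5 ± 7.24 to 149 ± 15.2. The receptor genes Nrp1 and Tigit changed by 0.98 and 0.53. Gata3, the Th2 factor, was low but separate: 0.88 to 1.13 TPM in DMSO and 3.03 to 4.29 TPM in EGCG (log2 change 1.23, adjusted p = 7.59e-11). Of 10 Th1 genes tested, 3 rose and 0 fell: the IL-12 receptor gene Il12rb2 (1.23), the chemokine receptor gene Cxcr3 (0.76) and Stat4 (0.69). The shares over all genes were 21.7% higher and 13.5% lower. Csf2 and Ifng did not reach the minimum level for testing.

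Il2, encoding the main T cell growth factor (chromosome 3, 37120523 to 37125959, minus strand), rose with a wide gap between the groups. It had 147, 153, 240, 157 and 117 TPM in DMSO and 629, 592, 896, 668 and 836 TPM in EGCG (log2 change 2.17, SE 0.204, adjusted p = 1.32e-13). Of 9 cytokine genes of activation tested, 2 rose and 2 fell, where 21.7% of all genes were higher and 13.5% lower. The second that rose was Tnf, by 0.37. Lta, lymphotoxin alpha, fell from 1484 ± 146 to 934 ± 97.1 TPM. Of 13 genes of IL-2 and STAT5 signalling, 5 rose and 3 fell, with a median of -0.04, and Socs2, a STAT5 target that restrains cytokine signalling, fell from 103 ± 5.1 to 59.7 ± 4.35 TPM.

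Of 19 ligands and receptors of the TNF superfamily, 12 rose and 1 fell, with a median of 0.80. Among ligands, Tnfsf4 (OX40 ligand) went from 0.997 ± 0.212 to 11.9 ± 3.48 TPM (log2 change 2.65, adjusted p = 1.12e-16) and Tnfsf8 (CD30 ligand) from 0.22 ± 0.138 to 3.09 ± 1.06. Both are costimulatory and were low in every DMSO library. Of 20 early genes of T cell receptor signalling, 11 rose and 1 fell, with a median of 0.40. The activation marker Cd69 changed by 0.74, the adhesion receptor Cd44 by 0.79, the nuclear receptor Nr4a2 by 1.25, and the factor genes Egr1 and Junb by 0.58 and 0.44.

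Inhibitory receptors rose with them. Of 8 tested, 7 rose and 0 fell, with a median of 0.59: Btla rose from 14.7 ± 0.684 to 29.5 ± 2.54 TPM, Pdcd1, the gene of PD-1, rose from 129 ± 7.91 to 201 ± 10.2, and Cd200 changed by 0.73. Genes of naive and quiescent T cells were also higher, 11 of 18 with none lower (median 0.35). They included Slfn2, from 119 ± 8.16 to 215 ± 9.7 TPM, the repressor gene Bach2 from 43.1 ± 2.17 to 72.8 ± 3.01, the glucose uptake inhibitor Txnip (0.95) and the antiproliferative gene Btg2 (0.67). Of 10 T cell identity genes tested, 7 rose and 0 fell: Cd5, a negative regulator of receptor signalling, changed by 0.82, Cd3g by 0.50 and Cd3d by 0.39. Their summed level was higher in all EGCG libraries (exact two-sided permutation test p = 0.00794, the smallest that 5 against 5 allows, or 0.0714 adjusted over 9 marker lists). Dendritic and MHC class II markers summed to 4.08 to 8.06 TPM in DMSO and 6.82 to 10.7 in EGCG. Their part in these results was not tested.

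Among homing receptors, 4 of 16 rose and 2 fell, or 1 without replicate 1 of both groups. These counts were near the shares over all genes, 21.7% higher and 13.5% lower. Cxcr6 went from 3.37 ± 0.703 to 11.3 ± 1.22 TPM and Ccr7, the lymph node receptor, from 419 ± 26.2 to 526 ± 24.6 TPM, while Gpr15, a receptor of homing to the colon, fell from 28.6 ± 3.86 to 15.9 ± 2.9. Among chemokine ligands, Ccl20 was not called, although all 5 EGCG libraries (202 to 316 TPM) lay above the DMSO libraries (129 to 158 TPM). It had a log2 change of 0.82 and an adjusted p of 0.0524. It was called without EGCG replicate 1 (0.91, adjusted p = 0.0449), with the replicate number as a block (adjusted p = 0.0376) and in a fit on the compared groups alone (adjusted p = 0.000341).

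**Figure D2:**
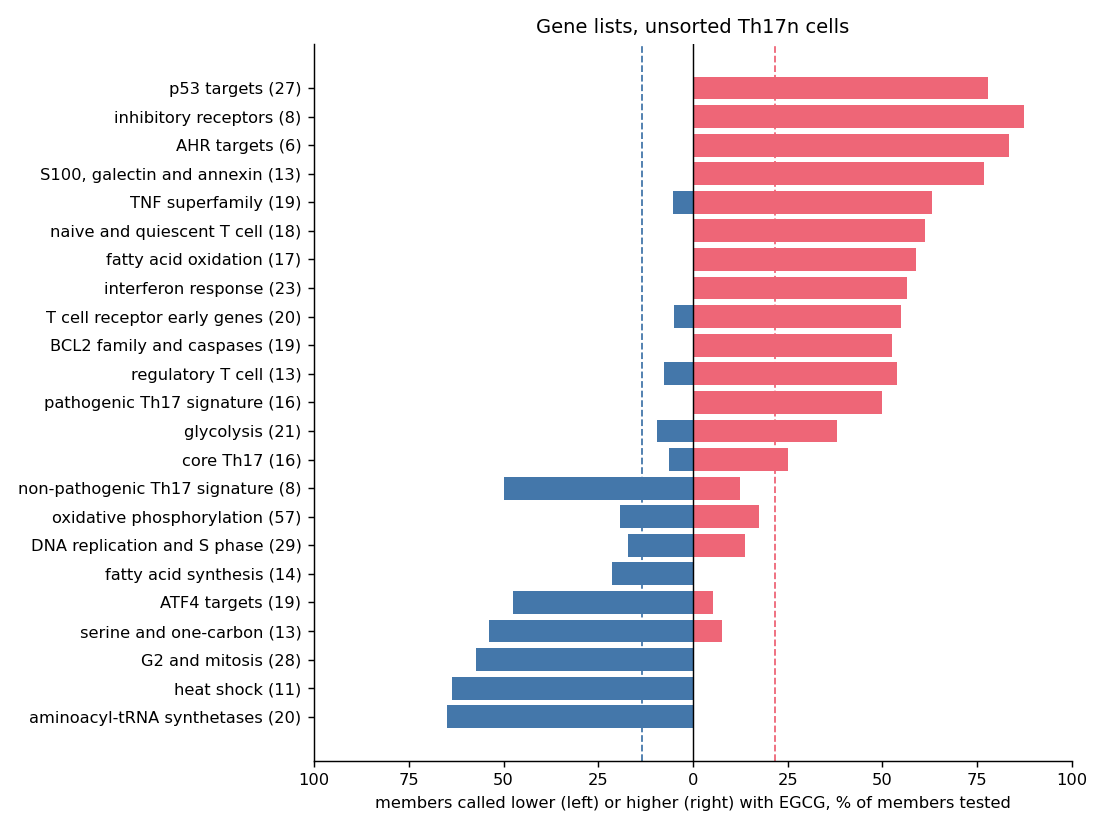
Share of the tested members of 23 gene lists that were called higher (right) or lower (left) with EGCG, in percent, with the number tested in brackets. Dashed lines mark the shares over all 10672 genes, 21.7% higher and 13.5% lower, and lists from p53 targets down to core Th17 lie beyond the right line while those from the non-pathogenic signature down lie beyond the left one.

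Targets of the aryl hydrocarbon receptor rose while its own gene was lower. Of 6 tested, 5 rose and 0 fell, with a median of 1.06. Cyp1a1, the classic target enzyme, had 2.88, 1.2, 2.43, 1.72 and 1.51 TPM in DMSO and 4.25, 9.37, 8.03, 8.05 and 11.5 TPM in EGCG (log2 change 1.62, adjusted p = 0.000207). The groups were separate, with EGCG replicate 1 nearest to DMSO. Cyp1b1 changed by 1.01, and Tiparp, a feedback inhibitor of the receptor, by 1.12. Nqo1 changed by 0.52, a call that was lost when any of 6 libraries was left out (at most adjusted p = 0.0655, without EGCG replicate 3). Ahr itself fell from 19.9 ± 1.75 to 15 ± 2.15 TPM, a call that was lost at a pseudocount of 0.1 (adjusted p = 0.0827) and with well A4 in its labelled group (adjusted p = 0.15). Among receptors and mediators of Th17-inducing cytokines, 4 of 10 rose and 3 fell. Il21r changed by 0.85 and Il12rb1 by 0.50, while the kinase gene Sgk1, which acts downstream of IL-23 and salt, fell from 127 ± 25.8 to 64 ± 14 TPM. Id3, an inhibitor of E proteins, rose from 38 ± 2.8 to 88.3 ± 19.9 TPM. It was the largest change on the list of TGFb targets, where 3 of 12 rose and 1 fell, or 3 after rescaling. These counts were near the shares over all genes, 21.7% higher and 13.5% lower.

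In central metabolism the changes were smaller. Of 21 glycolysis genes, 8 rose and 2 fell, with a median of 0.12. Ldhb, the lactate dehydrogenase subunit that favours pyruvate, had 31.7 to 34.8 TPM in DMSO and 71.5 to 81.6 in EGCG (log2 change 1.17, adjusted p = 2.33e-17), and the lactate transporter Slc16a1 fell from 55.1 ± 2.1 to 31.9 ± 6.4 TPM. Pfkl, Hk1 and Pkm, which encode enzymes of the pathway's committed steps, changed by 0.29, 0.33 and 0.16. Pgam1, phosphoglycerate mutase, was not called: it had 1244 ± 78.5 and 1177 ± 34.8 TPM (log2 change -0.08, adjusted p = 0.168), and was called lower after rescaling (-0.12, adjusted p = 0.00194). Hk2 was at -0.03 and G6pdx, the entry enzyme of the pentose phosphate pathway, at -0.09. Neither was called, but G6pdx was called lower after rescaling (-0.13, adjusted p = 0.0261). Of the 12 pentose phosphate genes, 2 rose (Pgls by 0.20 and Taldo1 by 0.15) and 2 fell, among them Prps1, which makes the ribose donor of nucleotides, by 0.57 on the log2 scale. The shares over all genes were 21.7% higher and 13.5% lower. After rescaling, 2 of the pentose phosphate genes rose and 5 fell.

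Of 17 genes of fatty acid oxidation, 10 rose and 0 fell, with a median of 0.19. Slc25a20, the carnitine carrier of mitochondria, rose from 29.1 ± 1.27 to 43.5 ± 2.12 TPM, and the enzyme genes Acadl, Acadvl, Hadha and Eci2 changed by 0.31, 0.29, 0.24 and 0.24. Of 14 genes of fatty acid synthesis, 0 rose and 3 fell, all of them desaturases. Scd1 had 6.27, 11.3, 12, 11.4 and 9.87 TPM in DMSO and 6.75, 3.74, 3.04, 5.85 and 2.56 TPM in EGCG. Replicate 1 was the exception in both groups, lowest in DMSO and highest in EGCG, and the change went from -1.09 to -1.38 without both. Scd2 changed by -0.44 and Fads1 by -0.27. Oxidative phosphorylation had 10 of 57 higher and 11 lower, with a median of 0.04, against 21.7% higher and 13.5% lower over all genes. After rescaling 4 were higher and 14 lower, and without replicate 1 of both groups 9 higher and 5 lower.

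Several genes of amino acid supply and of the ATF4 stress response were lower. ATF4 is the factor that cells use to answer amino acid shortage. Of 19 ATF4 targets tested, 1 rose and 9 fell, with a median of -0.23. Chac1, a glutathione-degrading enzyme and a sensitive ATF4 target (chromosome 2, 119351229 to 119354381, plus strand), had 1.97, 5.66, 8.72, 13 and 9.26 TPM in DMSO and 0, 0.483, 0.623, 0.408 and 0.21 TPM in EGCG. It was low in every EGCG library, and lowest of each group in replicate 1 (log2 change -2.54, SE 0.408, adjusted p = 9.42e-07, or -2.79 without replicate 1 of both groups). Trib3, a pseudokinase gene, had 4.01, 4.1, 9.85, 9.11 and 8.18 TPM in DMSO and 1.73 to 3.05 TPM in EGCG (log2 change -1.18, adjusted p = 0.000358). The amino acid transporter Slc7a5 changed by -0.55. Sesn2, which both ATF4 and p53 activate, rose from 9.59 ± 0.596 to 23.2 ± 1.75 TPM.

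Serine and one-carbon genes had 1 of 13 higher and 7 lower, with a median of -0.24. The serine synthesis enzymes Phgdh, Psph and Psat1 changed by -0.41, -0.41 and -0.30, Shmt2, the mitochondrial serine hydroxymethyltransferase, by -0.33, and the methionine adenosyltransferase Mat2a by -0.29. Of 20 aminoacyl-tRNA synthetases, 0 rose and 13 fell, with a median of -0.22. Nars, for asparagine, had 223 to 246 TPM in DMSO and 145 to 163 in EGCG (log2 change -0.61, adjusted p = 1.43e-11). Vars (-0.66), Tars (-0.35), Iars (-0.32) and Yars (-0.27) are further members. Of 11 heat shock genes, 0 rose and 7 fell, with a median of -0.18, among them Hsph1 (-0.30), Hspa8 (-0.23) and Hsp90ab1 (-0.18), all chaperones. Of 17 NRF2 targets, 3 rose and 5 fell. The glutathione genes Gclm and Gsr changed by -0.93 and -0.85 and the peroxiredoxin Prdx1 by -0.17.

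The composite C/EBP-ATF element, here TGATGNAA on either strand, is the sequence through which ATF4 is known to act. It was in the RefSeq windows of 8 of 21 ATF4 targets and of 5 of 12 tRNA synthetases that had one, against 4.51% of all genes with a window and 2.79% of the tested ones. Among members called, 4 of 9 ATF4 targets and 5 of 7 synthetases held it. The stretches before the start of Chac1 (chr2:119350992-119351156, plus strand) and Tars (chr15:11399659-11399773, minus strand) show the match in capitals, on the other strand than the motif as spelled.
Chac1: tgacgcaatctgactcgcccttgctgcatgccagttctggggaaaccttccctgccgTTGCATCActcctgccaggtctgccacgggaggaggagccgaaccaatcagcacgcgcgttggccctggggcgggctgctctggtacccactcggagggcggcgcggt
Tars: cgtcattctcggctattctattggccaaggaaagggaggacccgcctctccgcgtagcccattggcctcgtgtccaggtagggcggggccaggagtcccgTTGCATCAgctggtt
The match began 193 bases before the start in Chac1 and 15 bases before it in Tars. As above, the letters describe the window and not binding, and a high share among known ATF4 targets does not bear on the response to EGCG.

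Many interferon-response genes were higher. Of 23 tested, 13 rose and 0 fell, with a median of 0.30. Gbp2, a guanylate-binding protein gene, had 37.9, 24.5, 22.7, 29.1 and 30.4 TPM in DMSO and 76.6, 65.4, 56.7, 59.1 and 79.9 TPM in EGCG, without overlap (log2 change 1.20, adjusted p = 7.43e-09). Ifi27l2a changed by 1.19, the RNA sensor Ddx58 by 0.73 and Gbp4 by 0.65. The interferon-stimulated response element, searched as TTTC, any 2 bases and TTTC on either strand, was in 15 of 20 members with a window, against 3.99% of all genes with one and 3.66% of the tested ones. That share, too, does not bear on the response to EGCG. The element is shown in capitals in Gbp2 (chr3:142620504-142620662, plus strand), where it began 59 bases before the RefSeq start.
Gbp2: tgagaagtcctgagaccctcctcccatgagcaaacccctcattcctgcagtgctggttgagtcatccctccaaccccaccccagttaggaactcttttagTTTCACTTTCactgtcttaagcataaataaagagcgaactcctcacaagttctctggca
Genes of S100 proteins, galectins and annexins were higher as well: 10 of 13 rose and 0 fell, with a median of 0.33, or 8 after rescaling. S100a6 rose from 2.14 ± 1.3 to 18.8 ± 4.98 TPM and S100a11 from 42.9 ± 7.19 to 97.7 ± 10.8, while Anxa2 (0.62), S100a10 (0.36) and Anxa5 (0.33) are further members that rose.

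The remaining large increases had no common list. Serpine2, a protease inhibitor gene, rose from 0.158 to 0.511 TPM in DMSO to 4.63 to 19.5 in EGCG. Ulbp1, a stress ligand of the NKG2D receptor, went from 0.349 to 1.62 TPM to 8.73 to 10.7, the endoglin gene Eng from 1.47 ± 0.542 to 12.7 ± 2.51 TPM and Rgs12, a regulator of G protein signalling, from 1.17 ± 0.167 to 9.95 ± 2.06 TPM. The groups were separate for all 12 of the largest increases, as the rule required, and all 12 were still called without replicate 1.

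Most of the largest decreases, taken only among called genes whose groups did not overlap, shared an uneven pattern within each group. Rac1, a small GTPase gene, had 92.1, 185, 246, 238 and 237 TPM in DMSO and 45, 56.2, 68.8, 90.1 and 59 TPM in EGCG (log2 change -1.58, adjusted p = 1.52e-06). Nsun2, an RNA methyltransferase gene, had 91.6, 166, 190, 191 and 182 TPM in DMSO and 41.6, 73.3, 77.3, 91.2 and 83.7 in EGCG. In both genes replicate 1 was the lowest library of both groups. The same held for 7 of the 12 largest decreases. Replicate 1 was the lowest DMSO library for 9 and the lowest EGCG library for 8. Over all tested genes, replicate 1 was lowest in DMSO for 21.1% and in EGCG for 37.7%.

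Beside Chac1, the others of this kind were Vapa (-1.40), Pcgf6 (-1.38), Zfand5 (-1.33) and Pgs1 (-1.25). Utp18 (-1.26) and Trib3 had replicate 1 lowest in DMSO only and Lamp1 in EGCG only. All 12 were still called without replicate 1 of both groups. Lamp1, a membrane protein of lysosomes, was at 0.64 TPM in EGCG replicate 1 and 13 to 25.7 in the other EGCG libraries, and its change went from -1.84 to -1.26 (adjusted p = 0.0291) without replicate 1. Srm, spermidine synthase, had the same shape (-1.26) with 215 TPM in DMSO replicate 1 against 403 to 550 in the others, and its groups overlapped. Of the other polyamine genes, Amd1 changed by -0.23 and Sat1, which breaks polyamines down, by 0.32. Foxp3 and the membrane protein gene Emp1 (-1.13) did not have this shape: replicate 1 was the highest DMSO library for both. The part that replicate 1 or its well column plays in these decreases was not tested further.

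**Figure D3:**
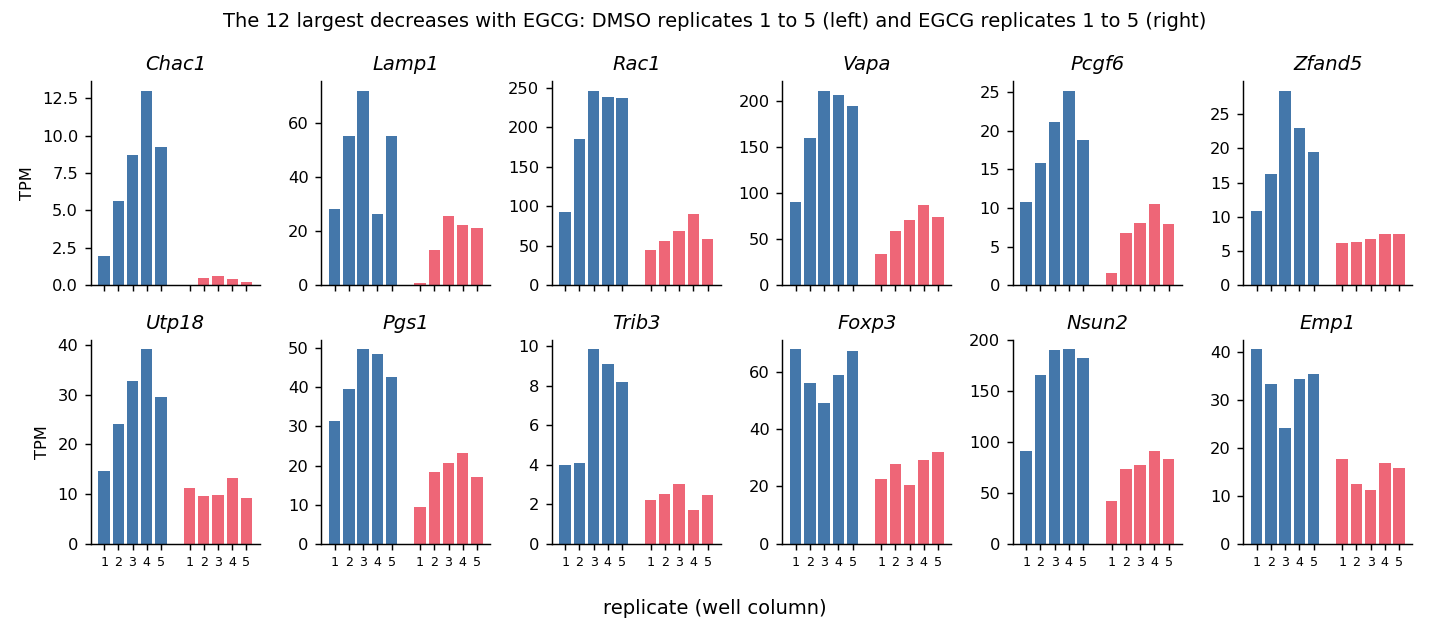
TPM, on the vertical axis, of the 12 genes with the largest decreases among called genes whose groups did not overlap. DMSO replicates 1 to 5 (left bars) and EGCG replicates 1 to 5 (right bars) are ordered along the horizontal axis by the replicate number, which is the well column. Replicate 1 was lowest in both groups for 7 of the 12, while for Foxp3 and Emp1 it was the highest DMSO library.

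The response differed in part from that of Th17p cells, which share no library with it. The difference between the responses, Th17n minus Th17p, was called for 2127 genes (19.9%), 806 higher (7.55%) and 1321 lower (12.4%), or 1124 and 1206 after rescaling. Il17f differed between them: EGCG left 6801 ± 637 against 6485 ± 523 TPM in Th17n, but 2284 ± 368 against 268 ± 93.6 in Th17p (difference 3.10, adjusted p = 1.47e-13). Il17a went from 73.3 ± 19.7 to 22.2 ± 14.8 TPM in Th17p, and its difference was 1.91 (adjusted p = 0.0215, or 0.0853 without Th17p EGCG replicate 2). Il22 changed by 1.44 in Th17n and by -2.15 in Th17p (difference 3.59, adjusted p = 3.51e-06). Il23r differed by 1.65.

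Several genes rose in Th17n and fell in Th17p, with the difference called: Il12rb2 (1.23 and -0.81), Gbp2 (1.20 and -0.69), Tiparp (1.12 and -0.55), Cxcr3 (0.76 and -0.77) and Batf (0.31 and -0.37). Foxp3 was at 0.132 ± 0.143 TPM in Th17p DMSO. Its difference of -1.09 (adjusted p = 0.000231) was not called at a pseudocount of 0.1 (adjusted p = 0.371) or with well A4 in its labelled group (adjusted p = 0.266). The cytokine genes Tnfsf11 (RANK ligand) and Il3 rose in Th17p by 2.32 and 2.45 and were at -0.50 and -0.19 in Th17n. Tnfrsf8 (CD30) and Ildr1 fell in Th17p by 2.50 and 3.35 on the log2 scale and were not called in Th17n. All 12 of the largest increases were also called higher in Th17p, where 30.1% of all genes were. Of the 12 largest decreases, 3 were called lower there (14.9% of all genes) and 3 higher: Rac1 changed by 0.66 in Th17p (difference -2.25, adjusted p = 3.9e-06) and Lamp1 by 1.22. Smap1, an ARF regulator, changed by -1.76 in Th17n and 1.00 in Th17p. For Cdkn1a (3.45 and 2.95, adjusted p = 0.136) and Il2 (2.17 and 2.04, adjusted p = 0.819) a difference was not detected.

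**Figure D4:**
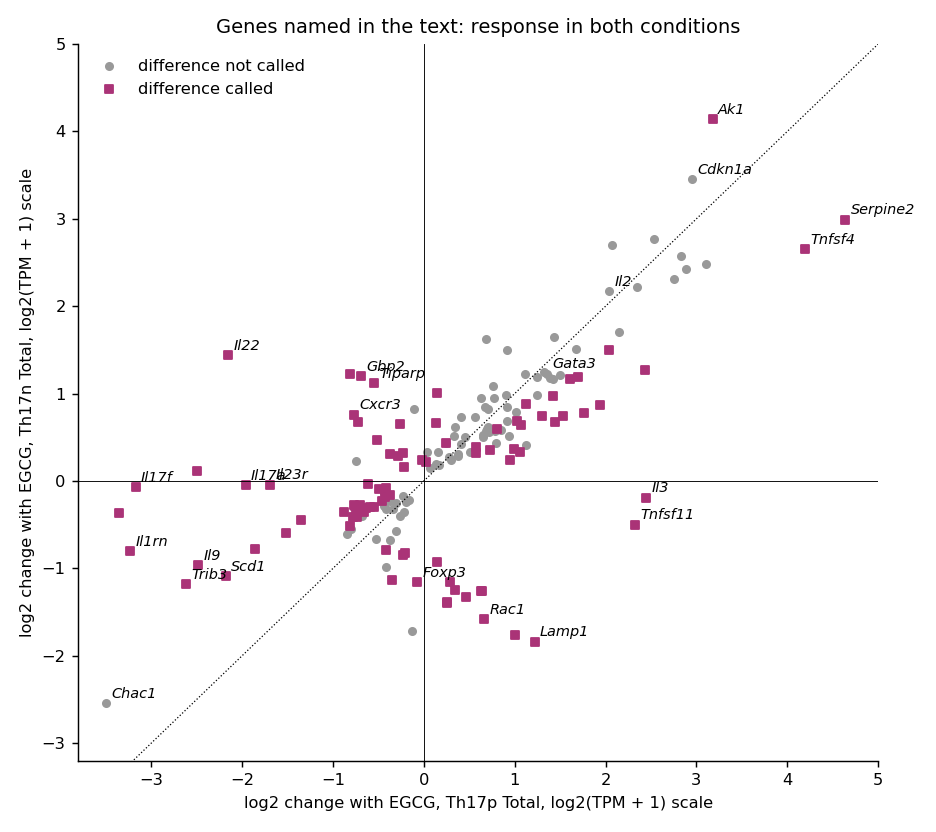
Log2 change with EGCG of the genes named in the text in Th17p Total (horizontal axis) and Th17n Total (vertical axis), on the log2(TPM + 1) scale; squares mark genes whose difference between the responses was called. Cdkn1a and Il2 lie near the dotted line of equal change, Il17f and Il17a lie near 0 in Th17n and far below 0 in Th17p, and Il22, Gbp2, Tiparp and Cxcr3 lie at opposite signs.

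Against cells sorted after 1 division, the difference (Total minus Div.1) was called for 1420 genes (13.3%), 270 higher (2.53%) and 1150 lower (10.8%), or 715 and 784 after rescaling. Without well column 1 of every group it was called for 829, and without Div.1 DMSO replicate 1 alone 160 were higher. Il17f rose in Div.1 from 3867 ± 354 (n = 4) to 7597 ± 554 TPM and had no call in unsorted cells (difference -1.04, adjusted p = 0.00812). Il17a went from 120 ± 43.2 (n = 4) to 367 ± 44.3 TPM in Div.1, with a difference that was not called (-1.72, adjusted p = 0.0633). The chemokine gene Ccl20 changed by 2.70 in Div.1 (difference -1.88, adjusted p = 0.00576, or 0.142 at a pseudocount of 0.1), and Cd5l, an inhibitor of lipid synthesis, by 1.91 there and 0.23 in unsorted cells (difference -1.68). Foxp3 fell further in Div.1, by 1.95 on the log2 scale (difference 0.79, adjusted p = 0.0152). That difference turned to -0.43 (adjusted p = 0.732) with the left-out library of well A4 in its labelled Div.1 group, and was not called without well column 1 (0.78, adjusted p = 0.0583), without Div.1 DMSO replicate 4 (0.64, adjusted p = 0.0675), at a pseudocount of 0.1 (adjusted p = 0.457) or in the fit on the compared groups alone (adjusted p = 0.0557). Pja1, a ubiquitin ligase gene, differed most (-2.57, adjusted p = 0.0141, or 0.105 without well column 1 and 0.0521 without EGCG replicate 1). The surface marker gene Ly6c1 (1.22) and the thromboxane receptor gene Tbxa2r (1.18) had positive differences. In Div.1, where 34.9% of all genes were called, 28.1% higher and 6.77% lower, the 12 largest increases were called higher and 11 of the 12 largest decreases lower.

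DHEA in the same cells was given in another solvent and at another concentration, 50 µM against 20 µM. The difference, EGCG response minus DHEA response, was called for 2833 genes (26.5%), 1927 higher (18.1%) and 906 lower (8.49%), or 1371 and 1397 after rescaling. Among genes with a positive difference, DHEA took Il17a from 364 ± 90.4 to 19.5 ± 15.9 TPM (difference 4.42, adjusted p = 5.93e-08). Il17f changed by -2.47 with DHEA (difference 2.40), Cd5l by -3.44 (3.67) and Cyp1b1 by -2.86 (3.87). Ak1 changed by 0.82 with DHEA against 4.14 (3.32), and Cdkn1a by 2.02 against 3.45 (1.43, adjusted p = 2.17e-06). Foxp3 was at 0.29 with DHEA (adjusted p = 0.141). The difference of -1.45 was not called at a pseudocount of 0.1 (adjusted p = 0.0697) or with well A4 in its labelled group (adjusted p = 0.0947). The genes Xcl1, Ms4a4b and Nkg7, known from cytotoxic lymphocytes, changed by 5.69, 3.75 and 2.78 with DHEA and by 1.23, 1.27 and 0.41 with EGCG. Of these, Ms4a4b alone was called with EGCG. With DHEA, where 46.1% of all genes were called, 20.8% higher and 25.3% lower, the same 12 largest increases were called higher and 8 of the 12 largest decreases lower, Rac1 by 1.76 on the log2 scale.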

How the data were processed

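RNA from cultured Th17 cells was sequenced after poly(A) capture, per the labels' protocols. Trimmomatic was used for trimming and kallisto for quantification, with mm10 as the build, per the submitters' processing notes, with versions and settings not given in the sources used here. The authors deposited 1 table of TPM per gene symbol (20465 rows) and library, whose columns summed to 880077 to 895017. It held no mitochondrially encoded genes, and the step from transcripts to symbols is not given in the sources used here, so reads shared by gene families cannot be resolved.

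Symbols were matched to GENCODE M21 on mm10 (19736 matched). Genes with at least 1 TPM in at least 4 libraries were kept (10672). Limma 3.58.1 (R 4.3.3) was fitted to log2(TPM + 1) with 16 group means and a trended empirical Bayes variance, and two-sided p-values were adjusted by Benjamini-Hochberg. Well A4, a Th17n title among wells A1 to A5 that are otherwise Th17p, was not fitted. Differences between responses were contrasts in the same fit. Marker sums were compared by exact permutation. On simulated data, 78% of genes shifted by 0.5 and 93% of those shifted by 1 (log2) were found, with 4.47% of calls false (10672 genes). The simulated noise was independent between genes, with the same spread in all groups and no outlying library. These rates may therefore not hold for the real libraries, where EGCG replicate 1 stood apart. Alternatives were a pseudocount of 0.1, no filter, rescaling by the median ratio, a fit on the compared groups alone, the well column as a block, well A4 included and each library left out. Leaving out well column 1 was chosen after seeing the data.

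Named genes were the 12 largest increases and decreases among called genes with a mean of 5 TPM or more in either group and no overlap, the members of each described list with the lowest p (5 at most), a fixed panel, and the 5 largest differences each way between responses. Those given are a part of these. The comparison and the 58 gene lists were chosen with earlier results of these data known. In promoter windows (RefSeq, GRCm38.p6), 13 motifs were searched and 4 are described. Python 3.11.15, pandas 2.3.3, numpy 2.4.6 and matplotlib 3.10.9 were used.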

Additional observations from a re-analysis of the deposited data

Results flagged for a closer look

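In some groups of 5 libraries, 1 library lay far from the other 4, by Dixon's criterion at the 95% level, which chance alone passes in about 5% of groups. Whether these cases were more frequent than that was not tested, so they are listed as a description only. EGCG replicate 1 accounted for several of these. It was the lowest EGCG library for Cd5 (641 TPM), Nr4a2 (6.11 TPM), Pgls (158 TPM), Tnfsf11 (0.411 TPM) and Zmat3 (10.6 TPM), and the highest for Ddx58 (5.57 TPM). DMSO replicate 1 was the highest DMSO library for Ccng1 (86.3 TPM) and the lowest for Nsun2 (91.6 TPM). EGCG replicate 5 was highest for Cdk6 (56.5 TPM), Il21r (196 TPM), Lgals3 (34.1 TPM) and Xcl1 (17.6 TPM), and EGCG replicate 4 for Il9 (1626 TPM). EGCG replicate 3 was lowest for Hspa8 (4100.0 TPM) and DMSO replicate 3 for Lrmp (14.1 TPM).

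The response to EGCG differed between Th17n and Th17p, tested as a contrast in limma, for these genes, with Th17n minus Th17p given. A positive difference can be a larger rise or a smaller fall in Th17n, and a negative one the reverse. It was positive for the Th17 genes Il17f (3.10), Il17a (1.91), Il22 (3.59), Il23r (1.65), Il21 (0.55), Il1r1 (0.93) and Il9 (1.52). Of these, Il1r1 and Il9 were called lower in Th17n. The difference was also positive for Ildr1 (2.98) and Tnfrsf8 (2.60), which fell in Th17p. The same held for the metabolic genes Hk2 (0.58), G6pdx (0.40) and Pgam1 (0.34), which had no call in Th17n. It was negative for Foxp3 (-1.09), which was near 0 TPM in Th17p, and for Il3 (-2.63), Tnfsf11 (-2.83), Lamp1 (-3.07), Smap1 (-2.77) and Mdm2 (-0.71). Mdm2 had no call in Th17n. The differences of Il21 and Il9 were each lost in 10 of 27 settings, at most with an adjusted p of 0.196 for Il21 (0.42, without well column 1) and of 0.301 for Il9 (with well A4 in its labelled group). That of Mdm2 was lost without well column 1 (-0.63, adjusted p = 0.0874) and without Th17n EGCG replicate 4 (-0.57, adjusted p = 0.0621).

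Between unsorted cells and cells sorted after 1 division, with Total minus Div.1 given, the difference was negative for Ccl20 (-1.88), Cd5l (-1.68), Il17f (-1.04), Il21 (-0.83), Hk2 (-0.47), Pgam1 (-0.23) and Pja1 (-2.57). It was positive for Foxp3 (0.79), which fell in both and further in Div.1, and for Ly6c1 (1.22) and Tbxa2r (1.18). With well A4 in its labelled Div.1 group, the differences of Hk2 (-0.24, adjusted p = 0.407) and Pgam1 (-0.12, adjusted p = 0.39) were not called, nor was that of Hk2 in the fit on the compared groups alone (adjusted p = 0.0505) or that of Pgam1 without well column 1 (-0.21, adjusted p = 0.0715).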

How the results depend on the processing

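The comparison of EGCG with DMSO called 3760 genes, and 2676 to 4243 over the alternatives: 2676 in a fit on the compared groups alone, 3623 without a filter on low values, 3688 at a pseudocount of 0.1, 3820 after rescaling, 3506 with well A4 in its labelled group, and 3460 without well column 1. Leaving out 1 library gave 3296 to 3616. Same-numbered libraries deviated together weakly (r 0.03 to 0.15, 2 of 5 pairs over 0.1, 3 of 5 DMSO libraries closest to their own number). Between libraries of different numbers r was -0.15 to 0.07. The numbers were not taken as pairs in the main fit, and whether the same number marks the same mouse was not tested. With the replicate block, 4243 genes were called (2581 higher and 1662 lower). The difference between unsorted and Div.1 responses moved most. It had 1420 calls, against 829 without well column 1 (137 higher and 692 lower), and 270 higher calls became 715 after rescaling and 462 with the replicate block, while leaving out 1 library gave 160 to 320 higher. For EGCG against DHEA, 906 lower calls became 1397 after rescaling. The cause was not tested. Of 150 called genes named, 137 were called in all 17 settings. With well A4 in its labelled group the calls of Ahr, Ikzf3, Il22, Il9, Lta, Ndrg1 and Tigit were lost (adjusted p 0.0612 to 0.287). So were those of Lamp1, Ly6c1 and Pja1 in the fit on the compared groups alone, of Ahr, Gpr15 and Il9 at a pseudocount of 0.1, of Il9 and Nqo1 without a filter, and of Nqo1 and Pja1 without well column 1. The replicate block added calls of Ccl20, Il21 and Tnfsf11, the compared groups alone Ccl20, and rescaling G6pdx, Maf and Pgam1. Among genes not called, the sign changed for Hk2 (-0.09 to 0.04 over the libraries left out, 0.04 without DMSO or EGCG replicate 3), Il17a (-0.17 to 0.11, with 0.11, 0.02 and 0.05 without DMSO replicate 2, DMSO replicate 3 or EGCG replicate 5), Il23r (-0.19 to 0.13, with 0.13, 0.10 and 0.02 without DMSO replicate 1, EGCG replicate 1 or EGCG replicate 5, and 0.27 without well column 1) and Tbx21 (-0.26 to 0.04, with 0.04 without EGCG replicate 1 and 0.06 without well column 1). TPM keep no depth, so the precision of low values could not be judged from counts.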

Other observations

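Lysosomal genes moved both ways with EGCG: of 16 tested, 6 rose and 3 fell, with a median of 0.09, where 21.7% of all genes were higher and 13.5% lower. Ctsd, the protease cathepsin D, rose from 93.1 ± 3.85 to 141 ± 9.13 TPM (adjusted p = 2.41e-14, log2 change 0.60). Atp6v1h, a subunit of the proton pump, fell from 62 ± 4.45 to 48.3 ± 3.5 TPM. Of 16 hypoxia-response genes outside glycolysis, 6 rose and 0 fell, with a median of 0.21, or 4 and 1 after rescaling and 9 and 0 without replicate 1 of both groups. The mitophagy receptor gene Bnip3 changed by 0.47, Ndrg1 by 0.59 and Ankrd37 by 0.44, the last with overlapping groups.

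Of 11 D-type cyclins, their kinases and inhibitors other than Cdkn1a that were tested, 4 rose and 2 fell. The shares over all genes were 21.7% higher and 13.5% lower. Ccnd2, a cyclin of the G1 phase, rose from 93.1 ± 4.78 to 139 ± 10.9 TPM (adjusted p = 2.78e-09, log2 change 0.57), and its partner kinase Cdk6 from 44.7 ± 1.95 to 54.4 ± 1.24 TPM.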
